A study of Ovis aries with 60 samples.

Results

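The sperm methylation of F1 sheep was compared between 5 pools from the methionine line and 5 pools from the control line, which are 10 of the 60 samples of the series. The pools were taken by their labels, 3T, 5T, 9T, 11T and 23T for sons of F0 rams given methionine and 4C, 6C, 10C, 12C and 24C for sons of F0 control rams. The F0 rams were male twins raised on one control diet, to which, for the treated brother in a pair, rumen-protected methionine was added (0.22%, 1.5 g) until puberty. The rams of both groups were mated to untreated Polypay ewes, and every F1 animal of both lines ate the control diet. Each pool combines semen DNA of several F1 males, the number per pool is not given in the sources used here, and the spread within a pool cannot be seen. The comparison asks whether sperm of untreated sons differed in DNA methylation with the diet of their fathers.

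Methionine is converted to S-adenosylmethionine, the methyl donor from which DNA methyltransferases methylate cytosine. In mammals most methylation lies on cytosines followed by guanine (CG), and much of it covers retrotransposons such as LINE elements. The sperm genome is highly methylated outside regulatory regions, after an erasure in primordial germ cells and a renewed methylation in the male germ line before birth.

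The 10 pools shared 294661 CG cytosines, each covered by at least 10 reads in every pool, with the strands listed separately. Reads on these cytosines ranged from 5.81 to 10.6 M per pool. The median coverage of a CG was 20 reads in pool 3T, 16 in 5T, 30 in 9T, 21 in 11T and 26 in 23T, and it was 26 in 4C, 31 in 6C, 22 in 10C, 20 in 12C and 26 in 24C. Pool 5T was thus the shallowest and 6C the deepest, and no difference in median coverage was detected between the lines (22.6 ± 5.46 against 25 ± 4.24 reads, SD, n = 5 each, exact permutation p = 0.46). Sperm markers such as the promoters of imprinted genes were not checked here, because no gene annotation of the build of the files was used. The mean CG level of the pools ranged from 72.0% to 75.6%, and their mean CHH level from 0.369% to 0.389%.

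The numbers in the pool labels were set beside the sperm methylation of the F0 rams with the same numbers. At the 232168 CG listed in both generations, the level of each sample was expressed as its deviation from the mean of its generation. All 10 pools had their highest correlation with the F0 ram of their own number, and the coefficients ranged from 0.344 to 0.506 across these CG. All 10 pools had their second highest correlation with the ram of the adjoining number in the other diet group (3 and 4, 5 and 6, 9 and 10, 11 and 12, 23 and 24), at 0.0967 to 0.178. The remaining rams gave coefficients of -0.195 to 0.0907. Each pool therefore resembled the ram of its own number more than any other ram, and the ram of the adjoining number came next. The labels say that the F0 rams were twins and do not say which numbers are twins. Cytosines of the same library are not independent, so no p-value is given for these coefficients. At CG with a mean level of 20 to 80% in the pools, the deviation of a pool changed by 0.332 to 0.407 points for each point of its own ram.

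Averaged over all listed CG, the methionine pools were slightly less methylated than the control pools, by less than the spread between pools. The mean CG level was 73.6% in pool 3T, 72.0% in 5T, 74.1% in 9T, 73.3% in 11T and 73.9% in 23T. It was 74.9% in 4C, 73.2% in 6C, 75.3% in 10C, 72.2% in 12C and 75.6% in 24C. The control pools thus covered a wider range than the methionine pools, with 4C, 10C and 24C above every methionine pool and 6C and 12C among the lowest values. The means were 73.4% ± 0.83 in the methionine line and 74.2% ± 1.46 in the control line (SD, n = 5 each), a difference of -0.86 points (two-sided exact permutation p = 0.29, with 0.0079 as the smallest p that this design allows). Between adjoining numbers the methionine pool was lower in 4 of 5 pairs, by -1.23 points for 3T and 4C, -1.21 for 5T and 6C, -1.20 for 9T and 10C and -1.71 for 23T and 24C. The pair 11T and 12C had a difference of 1.05 points in the other direction. With signs flipped within these pairs the exact p was 0.13, and 0.063 is the smallest that 5 pairs can give. Without pool 12C the difference was -1.37 points, without 5T -0.52 and without 24C -0.53, and the exact permutation p ranged from 0.079 to 0.54 when each pool was left out in turn.

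**Figure D1:**
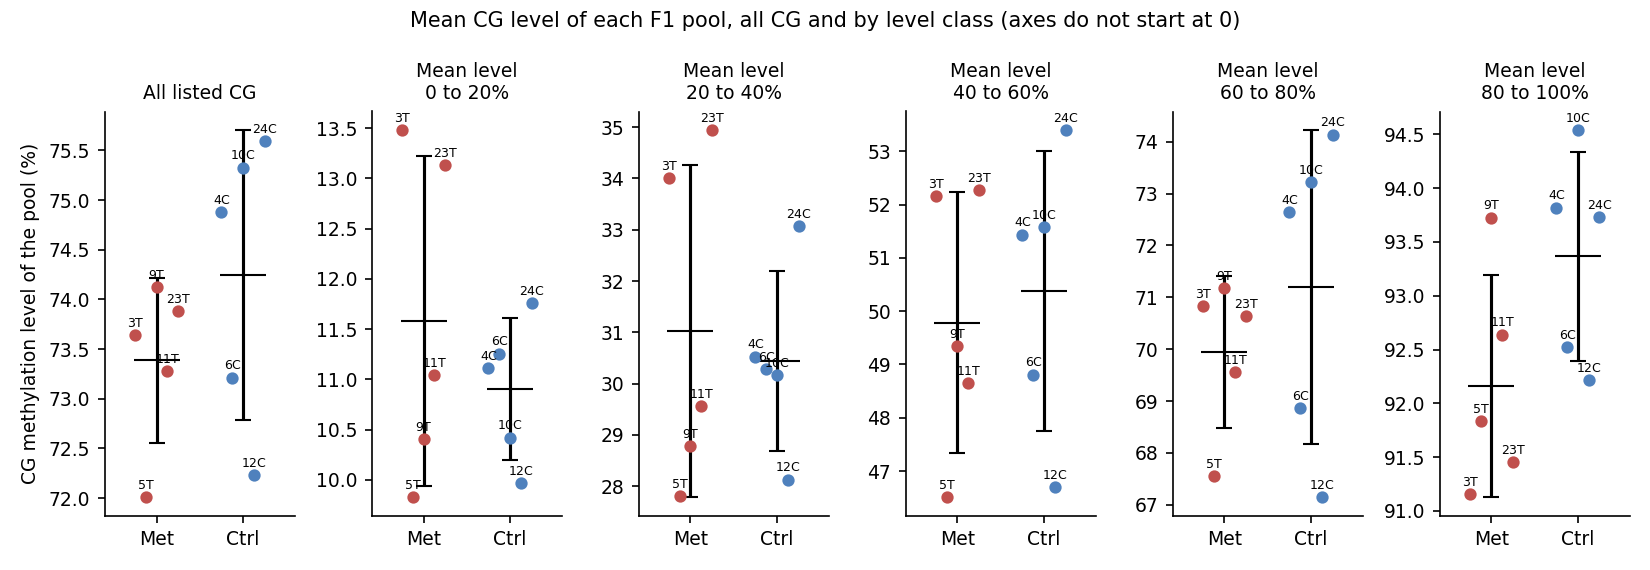
Mean CG level in percent of each F1 pool (points, labelled by pool) in the methionine (Met) and control (Ctrl) line, for all listed CG and for 5 classes of mean level, with horizontal bars at the mean of 5 pools and error bars of 1 SD. The axes do not start at 0, and the lines overlap in every panel.

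Classes of mean level, formed over all 10 pools, did not move in one direction. The 168721 CG with a mean level of 80 to 100% held most of the listed cytosines, and there the methionine pools had 91.2% in 3T, 91.8% in 5T, 93.7% in 9T, 92.6% in 11T and 91.5% in 23T. The control pools had 93.8% in 4C, 92.5% in 6C, 94.5% in 10C, 92.2% in 12C and 93.7% in 24C. Pools 3T, 5T and 23T lay below every control pool in this class, whereas 9T and 11T lay among them. The difference was -1.20 points (92.2% ± 1.03 against 93.4% ± 0.97, SD, n = 5 each, exact permutation p = 0.10, adjusted p = 0.52 over 5 classes).

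The remaining classes held fewer CG. The 44458 CG of 60 to 80% had a difference of -1.25 points (69.9% ± 1.47 against 71.2% ± 3.03, n = 5 each, exact permutation adjusted p = 0.73), and of -2.27 to -0.518 without single pools. The 37152 CG of 40 to 60% had a difference of -0.60 points (49.8% ± 2.45 against 50.4% ± 2.63, exact permutation adjusted p = 0.76), which turned to 0.219 points without 5T and 0.154 without 24C. In the lower classes the sign was the opposite. The 30958 CG of 20 to 40% had a difference of 0.58 points (31.0% ± 3.23 against 30.4% ± 1.76, exact permutation adjusted p = 0.76), and the 13372 CG of 0 to 20% had 0.67 points (11.6% ± 1.64 against 10.9% ± 0.71, adjusted p = 0.73). None of the 5 classes passed the test before or after adjustment, and the pools of the lines overlapped in each.

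The positive differences in the low classes came with 2 methionine pools. In the class of 20 to 40%, pool 3T had 34.0% and 23T 34.9%, against 27.8% in 5T, 28.8% in 9T and 29.6% in 11T. The control pools had 30.5% in 4C, 30.3% in 6C, 30.2% in 10C, 28.1% in 12C and 33.1% in 24C. Pools 3T and 23T were the 2 highest in the low classes and the 2 lowest in the class of 80 to 100%. The distance between the means of the top class and of the class of 20 to 40% was accordingly 57.1 points in 3T and 56.5 in 23T, against 63.1 to 64.9 in the other 3 methionine pools. In control pools it was 60.7 points in 24C and 62.2 to 64.4 in the other 4, and no difference was detected between the lines (61.1 ± 4.0 against 62.9 ± 1.51 points, n = 5 each, exact permutation p = 0.37). The class of 20 to 40% turned in sign when either was left out, with -0.16 points without 3T and -0.40 without 23T, whereas that of 0 to 20% stayed between 0.198 and 1.11 points without any single pool.

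All 26 autosomes and the X chromosome had a lower mean in the methionine pools, by -0.63 to -1.27 points with a median of -0.92. As these values share the same 10 pools, 27 lower chromosomes are not 27 observations. None of the 27 passed the test, with an adjusted p of 0.38 at the smallest and 0 chromosomes at an unadjusted exact permutation p under 0.05. The largest difference was on chromosome 24, with 2456 listed CG. There the methionine pools had 77.3% in 3T, 76.7% in 5T, 78.4% in 9T, 77.9% in 11T and 76.6% in 23T, and the control pools had 78.8% in 4C, 77.7% in 6C, 80.1% in 10C, 77.8% in 12C and 78.9% in 24C. Only 9T and 11T reached into the range of the control pools, and the difference was -1.27 points (exact permutation p = 0.056, adjusted p = 0.38, n = 5 each). The smallest difference was on the X chromosome, which had the lowest level of any chromosome (61.5% ± 1.89 against 62.1% ± 1.90, n = 5 each, exact permutation p = 0.63).

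**Figure D2:**
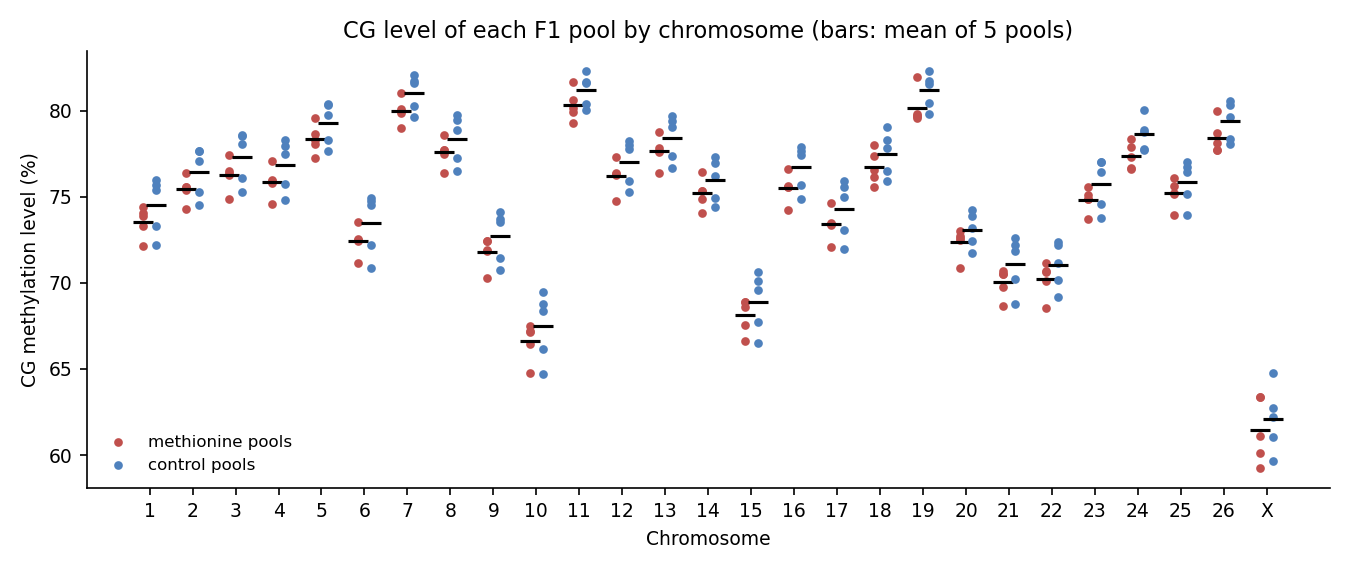
CG methylation level in percent of each F1 pool (points) on the 26 autosomes and the X chromosome, with the mean of 5 pools as a bar. Levels differ more between chromosomes, from the X chromosome with 61.5% to chromosome 11 with 80.4% in the methionine line, than between the lines on any chromosome.

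After the mean of each pool over all listed CG was taken from its levels, 16 of 27 chromosomes were lower in the methionine line. The other 11 were higher, and the differences lay between -0.41 and 0.23 points. None passed the test on this scale (smallest exact permutation p = 0.087, adjusted p = 0.93). No departure of a chromosome from the difference over all listed CG was thus detected. CG on unplaced scaffolds, 10182 in number, had 40.3% ± 6.17 in methionine pools and 39.0% ± 2.70 in control pools (n = 5 each, exact permutation p = 0.75). Pool 23T had 50.2% there, the highest of all pools, and 9T had 34.5%, the lowest.

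Windows of 100 kb divide the listed CG more finely. Of 24644 windows with a listed CG, 12103 held at least 10, and these took in 80.2% of the listed CG. The level of a window was the mean of its listed CG, a median of 17 per window, and does not describe its other CG. Most windows were lower in the methionine line, 8502 of 12103 (70.2%), with a median difference of -0.96 points. The 5th and 95th percentiles were -4.22 and 2.39 points, and the median standard error from limma was 2.07 points. All windows share the same 10 pools, so the shares of lower windows, here and by level class below, do not count separate observations. No window (0%) had an adjusted p of at most 0.05 in limma, where the smallest was 0.70. At an unadjusted limma p under 0.05 there were 653 windows (5.40%), of which 70 (0.578%) were higher and 583 (4.82%) lower in the methionine pools. With the pairs of adjoining numbers as a block there were 1007 (8.32%), and 0 with an adjusted p of at most 0.05. On levels minus the mean of each pool over windows, 466 (3.85%) had an unadjusted limma p under 0.05, 233 of them higher. Nothing is read from that balance, since the subtraction centres the differences near 0.

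Windows whose 5 methionine pools all lay on one side of the 5 control pools were counted next. There were 8 such windows with higher (0.0661%) and 94 with lower methionine pools (0.777%). Of the 94 lower windows, 74 had a mean level of 80 to 100% (1.21% of the windows of that class) and the other 20 one of 60 to 80% (0.543%). After the mean of each pool over all windows was subtracted, 36 windows were higher and 35 lower without overlap, of which 4 and 20 were among those without overlap before. This subtraction by itself centres the differences near 0, so nothing is read from the balance of the directions on that scale. By level class, 75.8% of the 6107 windows of 80 to 100% were lower, as were 69.3% of the 3685 windows of 60 to 80% and 61.9% of the 1804 windows of 40 to 60%. Of the 494 windows of 20 to 40%, 39.5% were lower, with a median difference of 0.50 points.

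**Figure D3:**
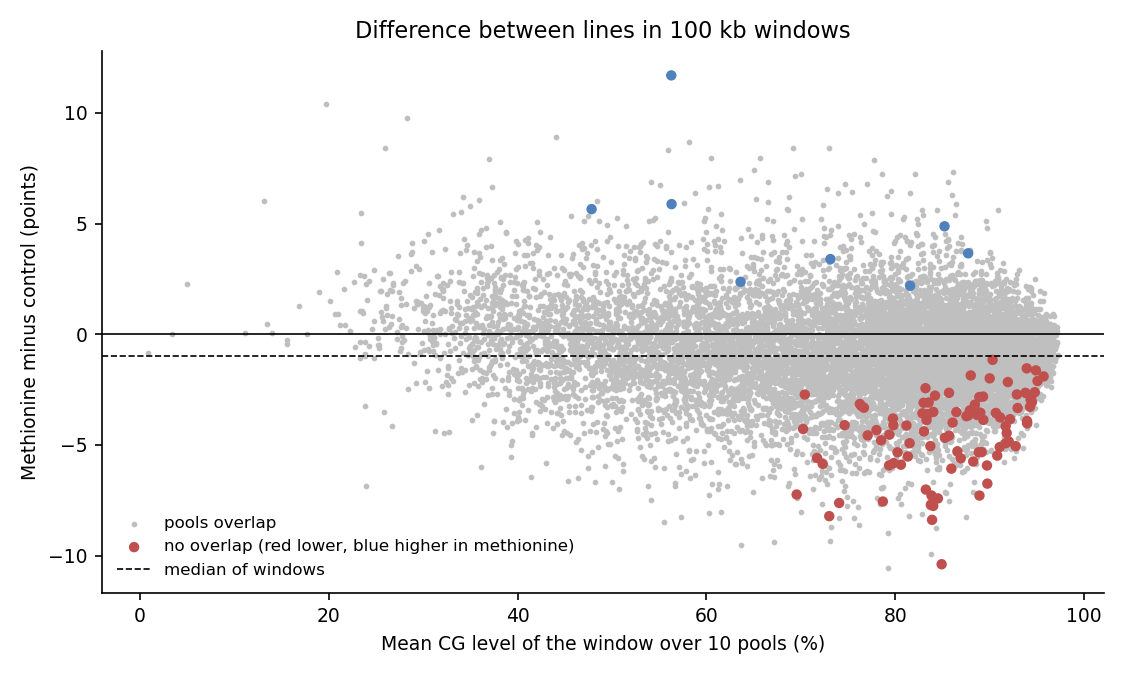
Difference in CG level between the methionine and control pools (points, vertical axis) of 12103 windows of 100 kb against their mean level over 10 pools (percent, horizontal axis). Coloured points are the 8 higher and 94 lower windows whose pools do not overlap between lines, and the dashed line is the median of -0.96 points.

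Among the windows without overlap, the 5 that differed most in each direction are described here by their values, as none passed the test. How many CG of such a window share its direction follows in part from this choice. The CG of a window also share the same 10 pools and are not replicates. Coordinates are in the build Oar_rambouillet_v1.0. The widest of all lay at chr8:73100001-73200000, with 14 listed CG. It had 67.6% in 3T, 60.6% in 5T, 66.7% in 9T, 56.8% in 11T and 58.9% in 23T, against 50.9% in 4C, 56.2% in 6C, 46.7% in 10C, 43.9% in 12C and 54.4% in 24C. All 14 CG had a higher mean in the methionine pools, the lines were 0.66 points apart at their nearest pools, and the means differed by 11.7 points (limma adjusted p = 0.70). The published annotation labels only cytosines that the study called differentially methylated. There, the cytosine at chr8:73103117 lies in a BovB element, a retrotransposon of the LINE class, outside any gene.

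The window at chr7:3200001-3300000 had 53.1% in 3T, 52.3% in 5T, 48.6% in 9T, 49.6% in 11T and 49.7% in 23T. The control pools had 45.8% in 4C, 44.1% in 6C, 48.0% in 10C, 42.0% in 12C and 45.0% in 24C. These 17 CG were partly methylated in all pools, and the lines differed by 5.66 points (limma adjusted p = 0.87). At chr2:176100001-176200000, 4 methionine pools lay between 86.2% and 86.9% and 3T stood at 91.5%, above control pools of 84.0% in 4C, 78.7% in 6C, 81.03% in 10C and 85.1% in both 12C and 24C. Only 7 of its 16 CG had a higher mean in the methionine pools, so the difference of 4.88 points was carried by fewer than its listed CG. At chr1:97300001-97400000 the methionine pools ranged from 87.9% to 91.4% and the control pools from 84.0% to 87.6%, a difference of 3.66 points over 10 CG. A window on an unplaced scaffold with 10 CG ranged from 55.2% to 63.9% in methionine pools and from 51.4% to 54.9% in control pools, a difference of 5.88 points. The windows on chromosomes 2 and 1 overlapped between lines once the mean of each pool was subtracted, and the other 3 did not.

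Among the lower windows, that at chr16:57500001-57600000 differed most. It had 76.6% in 3T, 77.4% in 5T, 84.2% in 9T, 84.5% in 11T and 75.8% in 23T, against 92.8% in 4C, 84.9% in 6C, 94.0% in 10C, 88.8% in 12C and 89.99% in 24C. The means were -10.4 points apart over 15 CG, although pools 11T and 6C were only 0.48 points from each other (limma adjusted p = 0.70). Of these CG, 4 were DMCs as defined further on, against 1.00% of all listed CG. The window was chosen for its difference in the same reads, so this count is no separate support. At chr7:74500001-74600000 the methionine pools had 80.2% in 3T, 77.8% in 5T, 77.5% in 9T, 80.1% in 11T and 82.9% in 23T, and the control pools had 86.2% in 4C, 88.1% in 6C, 93.1% in 10C, 87.3% in 12C and 85.7% in 24C. Here a gap of 2.76 points parted the lines, and the means differed by -8.38 points over 15 CG. The published annotation labels put 3 of its cytosines, at chr7:74545787, chr7:74545968 and chr7:74546107, in a LINE element of the L1 family outside any gene.

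The window at chr5:76100001-76200000 had 72.1% in 3T, 65.0% in 5T, 71.0% in 9T and 11T and 65.3% in 23T, against 78.5% in 4C, 77.9% in 6C, 74.6% in 10C, 75.3% in 12C and 79.2% in 24C. Of its 18 CG, 14 had a lower mean in the methionine pools, where 57.4% of all listed CG were lower by summed reads. The difference was -8.22 points (limma adjusted p = 0.70). Cytosines of this window, at chr5:76172495 and chr5:76172694, are labelled as lying in a BovB element in the promoter region of GABRB2, which encodes a beta subunit of the GABA-A receptor. The study counted as promoter the 10 kb upstream of a transcription start, so the label does not place them nearer than that. At chr11:58000001-58100000 the methionine pools ranged from 75.4% to 85.2% and the control pools from 85.3% to 91.9%, a difference of -7.75 points over 11 CG. At chr23:12600001-12700000 they ranged from 77.5% to 82.1% and from 85.0% to 92.2%, a difference of -7.70 points over 20 CG. Of these, 5 were DMCs, against 1.00% of all listed CG, again in a window chosen by the same reads. This window had the widest gap of the 10, 2.98 points between the nearest pools.

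**Figure D4:**
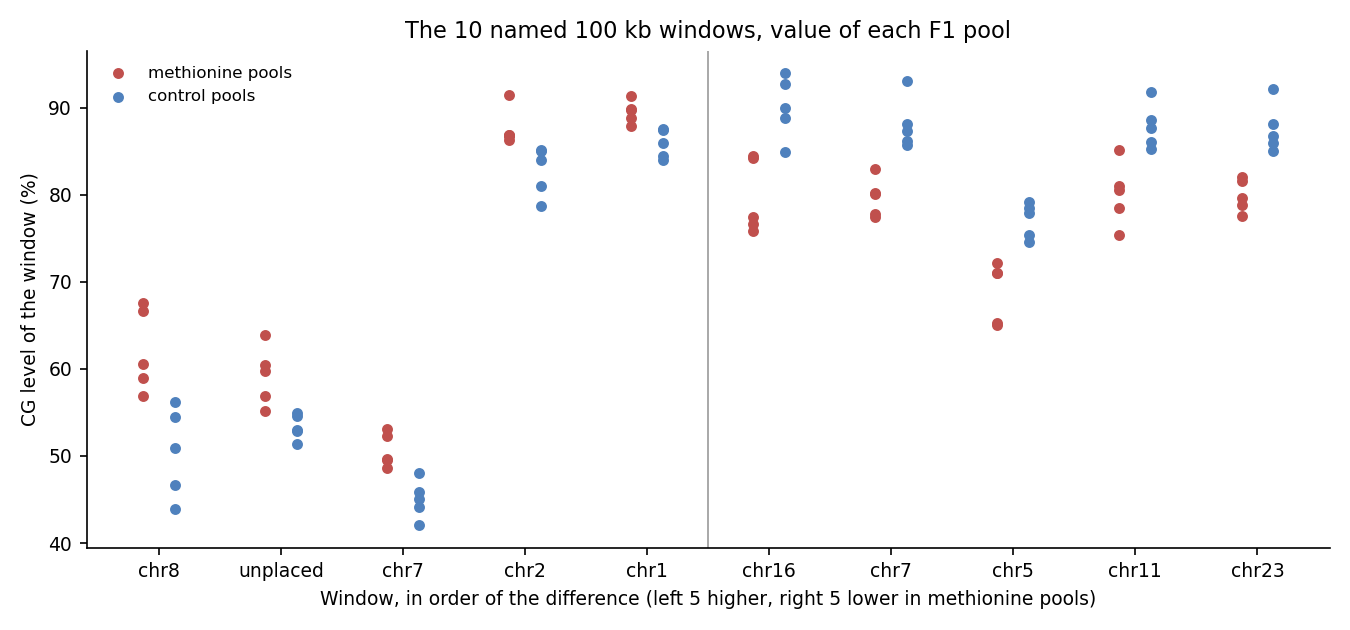
CG level in percent of each F1 pool (points) in the 10 windows of 100 kb named in the text, the 5 higher in methionine pools on the left and the 5 lower on the right, ordered by the size of the difference. No pool of one line lies within the range of the other in any of these windows, which is how they were chosen.

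The same windows were read in the F0 rams and in the F2 rams, which had no part in choosing them but are relatives of the F1 pools, so their p-values are not independent of the choice. In F0, all 5 lower windows but 2 of the 5 higher ones had the direction of F1, where 59.4% of all CG listed in both generations were lower in methionine rams. In F2, 3 of the 5 lower and all 5 higher windows had it, with each F2 value the mean of 2 rams descended from 1 F0 sire. Of all CG listed in F1 and F2, 48.0% were lower, a share of single CG, as for F0, and not of windows. The windows held only 2 to 8 listed CG in F2, with 2 in the scaffold window. The chromosome 1 window differed there by 0.58 points (exact permutation p = 0.79). Single sires turned some of these directions. In F2 they were those of the chromosome 1 window without 9T, 23T or 24C, the chromosome 23 window without 6C, the lower window of chromosome 7 without 12C and the chromosome 11 window without 23T, and in F0 that of the scaffold window without 5T, 12C or 24C. In each generation no window passed after adjustment over 10 (smallest exact permutation adjusted p = 0.079). The window on chromosome 16 was lower in both. In F2, over 8 listed CG, it had 80.4% ± 2.89 in the methionine line and 89.4% ± 2.66 in the control line (n = 5 sires each, exact permutation p = 0.0079, no overlap), and in F0 it had 79.4% ± 8.05 and 84.7% ± 3.98 (exact permutation p = 0.22). The window on chromosome 2 was higher in F2, 92.3% ± 3.42 against 78.0% ± 8.92 over 5 CG (n = 5 sires each, exact permutation p = 0.016), and had 84.7% ± 6.81 against 82.9% ± 4.0 in F0 (exact permutation p = 0.63). The window of chromosome 7 that was higher in the methionine pools of F1 went the other way in F0. There it had 46.7% ± 1.97 in methionine rams and 53.8% ± 2.38 in control rams over 13 CG, without overlap (n = 5 each, exact permutation p = 0.0079), and when only CG listed in both generations were used the difference was -3.37 points (exact permutation p = 0.24).

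Single cytosines were tested next, with reads summed over the 5 pools of a line. A cytosine was called differentially methylated (DMC) where a likelihood-ratio test on these sums gave an adjusted p no higher than 0.01 and the levels were 20 points or more apart. There were 2949 CG DMCs (1.00% of 294661), of which 1351 (0.458%) were hypermethylated and 1598 (0.542%) hypomethylated in the methionine line. This test does not use the spread between pools. At these DMCs the wider of both lines had a median range of 57.5 points between its highest and its lowest pool, against 34.7 points at all CG with a mean level of 20 to 80%. In 230 of the 2949 DMCs (7.80%) the pools did not overlap between lines, 82 hypermethylated and 148 hypomethylated. Over all listed CG, 534 (0.181%) were higher and 1440 (0.489%) lower without overlap. Together these shares were not above the 0.0079 that the labelling of the pools gives by itself. Once the mean of each pool was subtracted, 1275 CG were higher and 1069 lower without overlap. As for the windows, nothing is read from the balance of directions on that scale. Limma on the level of each pool gave 0 CG (0%) with an adjusted p of at most 0.05, the smallest being 0.95, and 14676 CG (4.98%) with an unadjusted p under 0.05.

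DMCs were most frequent among CG of intermediate level. They made up 1.08% of the CG of 0 to 20%, 2.09% of those of 20 to 40%, 2.37% of those of 40 to 60%, 2.42% of those of 60 to 80% and 0.117% of those of 80 to 100%. The class of 80 to 100% had 75 hypermethylated and 123 hypomethylated DMCs, whereas that of 0 to 20% had 77 and 68. Hypomethylated DMCs outnumbered hypermethylated ones on 20 of 27 chromosomes, which share the same pools. Of all DMCs, 54.2% were hypomethylated, whereas 57.4% of all listed CG were lower in the methionine line by summed reads. The share of DMCs ranged from 0.352% on chromosome 14, with 15 of 4261 CG, to 1.89% on chromosome 23, with 125 of 6613. They lay in 2340 windows of 100 kb and 11 of these held 5 or more, 11.4% to 27.8% of their listed CG. Whether DMCs lay closer together than their number alone would give was not tested. The largest number was 7, at chr6:50000001-50100000, where 6 were hypermethylated and 1 hypomethylated among 35 CG. At chr12:17800001-17900000, 6 of 31 CG were hypomethylated DMCs, and 4 of the 5 control pools (77.8% to 84.5%) lay above all 5 methionine pools (66.0% to 75.9%), with 12C at 74.9%. The CG counts of these last 2 windows were looked at after the DMCs were known.

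Most DMCs were called again when 1 pool was left out, but few were called in all 10 such sets. With 4 pools in one line the number of DMCs was 2795 to 3897, and between 1773 (without 9T) and 2505 (without 5T) of the 2949 were called again. Only 638 of the 2949 (21.6%) were called in all 10 sets that lacked a pool, and 120 of these also had no overlap between lines. The remaining DMCs were not called in at least 1 of these sets.

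Among the DMCs without overlap, the 3 hypermethylated and 3 hypomethylated ones that differed most are given by their levels, from 11 to 58 reads per pool. Their adjusted p-values in the likelihood-ratio test ranged from 7.76e-14 to 8.61e-08, and that in limma was 0.95 for each. Their F0 and F2 levels are a description, as the pools that chose them track these families. At chr2:164012030 on the minus strand, within a BovB element by the published labels, the methionine pools had 53.8% in 3T, 48.0% in 5T, 54.0% in 9T, 78.1% in 11T and 71.0% in 23T. The control pools had 30.3% in 4C, 5% in 6C, 0% in 10C, 12% in 12C and 32% in 24C. The summed reads differed by 45.9 points. The F0 rams at this cytosine overlapped between diets, with 100% in 3T, 3.03% in 5T, 38.2% in 9T, 45.9% in 11T and 40.9% in 23T and 0% to 54.5% in control rams.

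At chr5:98990584 on the minus strand, in an intron of FAM172A, the methionine pools had 66.7% in 3T, 86.7% in 5T, 96.2% in 9T, 60.9% in 11T and 76.0% in 23T, against 28.6% in 4C, 47.8% in 6C, 26.7% in 10C, 23.5% in 12C and 39.1% in 24C. In F0, 4 of 5 methionine rams were at 95.2% or more and 11T was at 53.1%, whereas control rams ranged from 0% to 92.9%. At chr6:113786310 on the plus strand, in a LINE element within an intron of EVC, which encodes a ciliary protein of the Hedgehog pathway, the levels were 66.7% in 3T, 35.3% in 5T, 89.6% in 9T, 74.4% in 11T and 78.3% in 23T, against 35% in 4C, 32.8% in 6C, 30.8% in 10C, 24.3% in 12C and 17.6% in 24C. Pools 5T and 4C nearly met. The F0 rams had 100% in 3T, 47.5% in 5T, 97.1% in 9T, 54.8% in 11T and 55.2% in 23T, and 0% in 6C, 12C and 24C, 51.8% in 4C and 52.8% in 10C. The ram levels at this cytosine thus lay close to 0, 50 or 100%.

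Of the hypomethylated DMCs, chr21:21721732 on the minus strand had 40% in 3T, 72.7% in 5T, 54.5% in 9T, 10.0% in 11T and 47.1% in 23T, against 100% in 4C, 89.3% in 6C, 93.8% in 10C, 85.7% in 12C and 100% in 24C. Control pools were thus all near full methylation and methionine pools widely spread. In F2 the methionine line ranged from 0% to 75.9% and the control line from 53.2% to 100%. At chr2:167798529 on the plus strand, in a LINE element within an intron of LOC114113186, the methionine pools ranged from 8.33% in 3T to 64.3% in 5T and the control pools from 65.2% in 4C to 95.7% in 10C. At chr1:203900829 on the plus strand, in an intron of STXBP5L, whose product restrains the fusion of secretory vesicles, they ranged from 5.41% in 11T to 56.3% in 5T and from 65.5% in 6C to 94.1% in 12C. In F0 the latter cytosine had 60.6% in methionine and 62.8% in control rams.

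Most F1 DMCs had the same direction of difference in the F0 rams. Of the 1351 hypermethylated DMCs, 1128 were listed in F0, and 88.8% of these were higher in methionine rams, with a median difference of 15.7 points. Of the 1598 hypomethylated DMCs, 1352 were listed in F0, and 1265 (93.6%) were lower, with a median of -16.3 points. Over all 232168 CG listed in both generations, 40.02% were higher and 59.4% lower in methionine rams, with a median difference of -1.02 points. In F2, 313 of 401 listed hypermethylated DMCs (78.1%) were higher and 346 of 467 hypomethylated ones (74.1%) lower, against 51.8% higher and 48.0% lower over all 79451 CG listed in F1 and F2. The medians at these DMCs were 10.1 and -9.02 points in F2. As the pools descend from these same rams and each pool tracks its own ram, the generations are not independent and no p-value is given.

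The levels of single F0 rams near the ends of the scale were counted at these cytosines and at all CG with a mean level of 20 to 80%. The sets are not alike, since the second includes DMCs and 88.4% of the DMCs had such a mean, the rest being nearer the ends. The DMCs were also chosen for differences between pools that each track their own ram. Ram levels further apart than at other CG thus follow in part from that choice. At the 2480 F1 DMCs listed in F0, 45.9% of the levels of the 10 rams were at most 10% or at least 90%, and 27.8% lay between 40 and 60%. At the 89231 CG with a mean level of 20 to 80% in the pools, also listed in F0, 14.1% of ram levels lay at these ends and 29.6% in the middle. The pools had 22.5% of levels at the ends for the same DMCs, and 5.74% for the CG of 20 to 80%. Differences of DNA sequence between animals at these cytosines were not examined here, and their part in these levels was not tested.

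The genes read here are part of a longer list that the study named for cytosines shared over generations, picked there for roles in growth or male reproduction. The study chose them on these samples, among others, so the values are a description, and the gene intervals were taken from its supplement, which does not name their build. Of 16 genes, 13 had a listed CG in their interval and 12 had at least 5, whereas DIRAS3, an imprinted Ras-related gene, GK2 and YBX3 had none. The intervals were read without flanks and for CG only. The shared cytosines of the study can lie outside them, as that of DIRAS3 in its promoter region, or outside CG. Their presence in F1 is therefore not read from these values. The mean level of the interval was lower in the methionine pools in 9 of the 12 and higher in 3, with a median difference of -1.09 points, close to the -0.96 points of all windows, and the pools overlapped between lines in all 12. CDH12, which encodes a cadherin, had the largest difference, with 74.1% in 3T, 74.3% in 5T, 77.2% in 9T, 73.2% in 11T and 77.2% in 23T, against 80.1% in 4C, 76.7% in 6C, 82.5% in 10C, 79.3% in 12C and 80.5% in 24C. None of its 38 listed CG was a DMC in F1, the difference was -4.63 points, and only 6C lay within the methionine range.

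ZBTB20, a zinc finger transcription factor gene, had 87.4% ± 1.36 in methionine and 89.7% ± 1.53 in control pools over 49 CG. THOC1, a gene of the complex for mRNA export, had the largest positive difference, 1.64 points over 11 CG (87.4% ± 3.23 against 85.8% ± 5.11), with 2 hypermethylated DMCs, where DMCs made up 1.00% of all listed CG. LPAR1, a receptor for lysophosphatidic acid, had 90.2% ± 1.77 against 89.5% ± 0.99 over 43 CG, with 2 hypermethylated and 1 hypomethylated DMC. CTNNA3, an alpha-catenin gene, had 77.0% ± 1.72 against 76.9% ± 1.94, with 3 DMCs in each direction (SD, n = 5 each). CATSPER3, which encodes a subunit of the calcium channel of the sperm tail, had only 3 listed CG. The interval with the largest difference thus held no CG DMC of F1 among its listed CG, and CTNNA3 and DLG2, the genes with the most listed CG, differed by 0.0924 and -1.13 points.

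Pools of one line were not detectably more alike than pools of different lines. The distance between 2 pools was the root mean square difference of their CG levels. It averaged 15.0 points among methionine pools (13.8 to 15.8 over 10 pairs), 14.9 among control pools (13.7 to 16.1 over 10 pairs) and 14.9 between lines (13.5 to 16.4 over 25 pairs). The mean between lines minus the mean within lines was -0.049 points (exact permutation p = 0.64, n = 5 each), and no separation of the lines was detected. The permutation took no account of the 5 pairs of adjoining numbers described further on, on which the sign of this value rests. The other 20 pairs between lines averaged 15.1 points, above both means within lines, and that difference was not tested. The mean distance of a pool to the other pools of its line was 15.1 points for 3T, 15.3 for 5T, 14.5 for 9T, 15.1 for 11T and 14.8 for 23T, and 14.6 for 4C, 14.3 for 6C, 15.4 for 10C, 15.6 for 12C and 14.7 for 24C. The deepest pools of each line, 9T and 6C, had the shortest distances.

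Once the variance expected from counting reads was subtracted, a step added after the data were seen, the distance averaged 10.3 points among methionine pools (9.57 to 11.3) and 11.1 among control pools (9.72 to 12.4). Each methionine pool then had a mean distance of 10.1 to 10.5 points to its line, and each control pool one of 10.6 to 11.7 points. These means share their pairs, and when the labels of the pools were permuted the difference of -0.87 points between the lines had an exact permutation p = 0.32 (n = 5 each). Leaving out single pools gave differences from -1.26 points (without 6C) to -0.490 points (without 10C). Between the lines, pools of adjoining numbers were closer on average than other pairs. As measured, their 5 distances averaged 14.2 points against 15.1 for the other 20 pairs, and 4 of the 5 lay below that mean, with 11T and 12C above it at 15.2. With counting variance subtracted they averaged 9.60 points (8.39 to 10.5) against 10.9, and all 5 lay below. Single pools could still be closer to another number, as 9T was to 24C (9.86 points) than to 10C (10.3). The shortest distance with counting variance subtracted was that of 5T and 6C, 8.39 points. As measured it was that of 9T and 24C, 13.5 points.

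**Figure D5:**
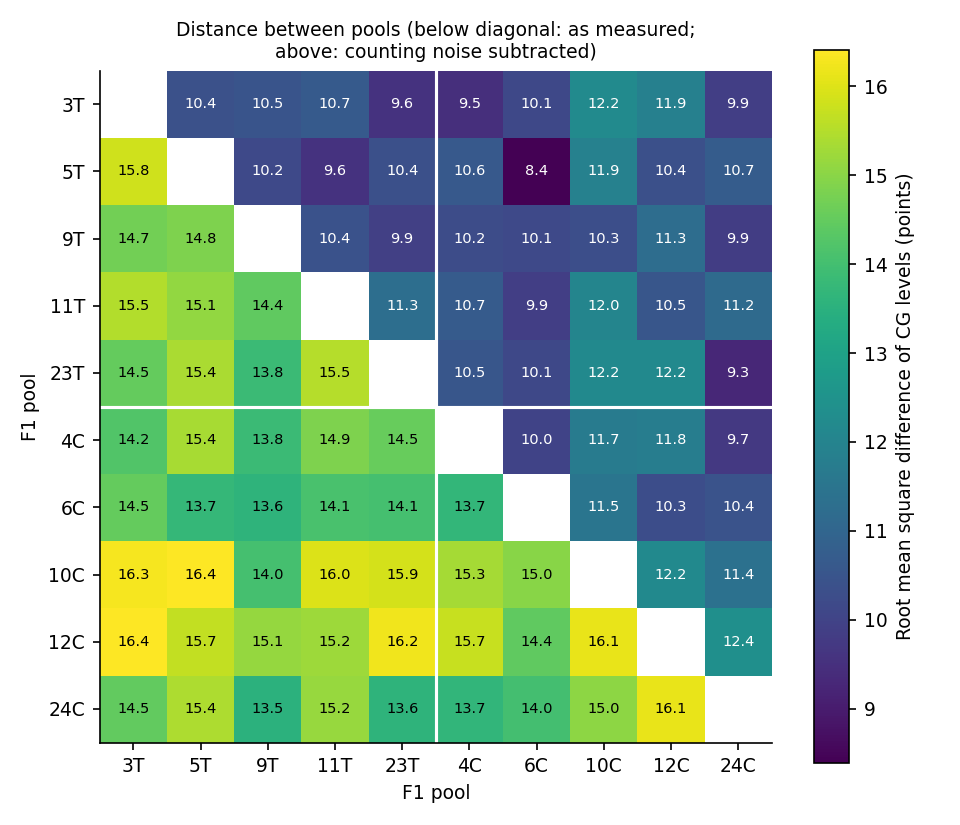
Root mean square difference in CG level (points, colour scale and numbers) between each pair of F1 pools, as measured below the diagonal and with counting variance subtracted above it. White lines part the methionine pools from the control pools, and the means are 15.0 and 14.9 points within the lines and 14.9 points between them as measured.

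At a single cytosine the pools of a line differed by an SD of 10.6 points in each line. Counting alone would give 7.70 points in the methionine and 7.01 points in the control line, and so took up 52.8% and 44.0% of the variance. The SD beyond counting was 7.28 points in methionine and 7.91 in control pools. It was largest among CG of 40 to 60% (11.2 and 12.3 points) and smallest among those of 80 to 100% (3.54 and 3.73 points). At the CG listed in both generations the single F0 rams had an SD beyond counting of 10.97 points among methionine and 11.1 among control rams, against 7.26 and 7.90 in the pools. The rams thus varied 1.51 and 1.40 times as much as the pools of the same line. At 2881 CG with both strands listed, the strands of a pool differed by 11.6 to 16.01 points (root mean square), of which counting would give 8.75 to 13.6.

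Cytosines outside CG were almost unmethylated in all pools. The mean level of 2067477 CHG cytosines (H being A, C or T) was 0.396% ± 0.0044 in methionine and 0.392% ± 0.0080 in control pools (n = 5 each, exact permutation p = 0.37). The mean of 8310730 CHH cytosines was 0.380% ± 0.0045 and 0.377% ± 0.0081 (n = 5 each, exact permutation p = 0.45). These levels include unconverted cytosines, and no difference between the lines was detected. DMCs by the same definition numbered 125 among CHG (0.00605%), with 55 hypermethylated and 70 hypomethylated, and 445 among CHH (0.00535%), with 213 and 232. Cytosines over 20% in at least 1 pool made up 0.259% of CHG and 0.273% of CHH cytosines, and 64 CHG and 198 CHH cytosines were over 80% in every pool.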

How the data were processed

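Sperm DNA of 10 F1 pools was read by whole-genome bisulfite sequencing. The authors trimmed the reads with Trim Galore, aligned them to Oar_rambouillet_v1.0 with Bismark and Bowtie2, removed duplicates and extracted counts with methylKit. The deposited files hold raw counts, not normalized, of all and of methylated reads per cytosine, for cytosines that 10 or more reads covered in all samples of their generation. The level of a cytosine is methylated reads divided by reads. At 10 reads it moves in steps of 10 points, and counting error covers reads, not animals. Columns of unmethylated reads were not used.

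Pools were grouped by their labels. Means were compared by two-sided exact permutation tests (5 against 5), with Benjamini-Hochberg adjustment over 5 classes or 27 chromosomes. Windows were fitted with limma 3.58.1 (lmFit, eBayes with trend, R 4.3.3) and adjusted over all 12103. DMCs used a likelihood-ratio test on summed reads, adjusted by Benjamini-Hochberg over all cytosines of a context, computed with SciPy 1.17.1. Both tests were also run on simulated data. For windows the noise was drawn independently in each pool, without shifts of a whole pool, and nothing is concluded from these runs. Named windows are the 5 per direction, and named cytosines the 3 per direction, with the largest differences among those without overlap, at most 1 cytosine a window. The permutation p-values measure the spread between pools, each of which tracked a different F0 ram. Apart from the sign-flip test of the mean level and the windows with a block, the tests took no account of the pairs of adjoining numbers. Gene and repeat names come from labels that the study gave to its DMCs, most of which it placed in repeats. These labels were held in part, so a cytosine without a name is not thereby outside genes. In the named windows, chr1:97391614 was also labelled as L1, whereas chr2:176105733 and chr11:58053559 carried no repeat label. The members, lists and rules were chosen with earlier results of these data known.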

Additional observations from a re-analysis of the deposited data

Results flagged for a closer look

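Among the 150 groups of 5 values tested for a sample far from the others, 6 values stood apart, and chance alone gives about 1 in 20 groups. Pool 3T had 91.5% in the higher window of chromosome 2, above the other 4 methionine pools. In LRRIQ3, pool 11T had 87.4% and stood above the other methionine pools, and pool 10C had 90.01% and stood above the other control pools. Pool 5T had the lowest methionine level on chromosome 9, 70.3%, and on chromosome 20, 70.9%, and pool 9T had the highest methionine level on chromosome 19, 81.9%. The higher window of chromosome 7 had a difference of -7.09 points in F0 rams and 5.66 points in the F1 pools, without overlap in either generation, and the difference between the generations was not tested. These values rest on different CG, and on CG listed in both generations the F0 difference was -3.37 points (exact permutation p = 0.24).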

How the results depend on the processing

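The mean CG difference kept its sign and stayed short of the threshold in all 15 alternatives, as did the CHG and CHH means in 24, and no window passed adjustment in 20 of 20 settings. On centred levels 16 chromosomes were lower. Windows at an unadjusted limma p under 0.05, without overlap lower and without overlap higher numbered 316, 52 and 3 of 5159 windows of 500 kb, 214, 35 and 1 of 4469 with 20 or more CG, and 54, 12 and 1 of 1342 with 20 reads in every pool. The first of each makes up 6.13%, 4.79% and 4.02% of the windows tested. Windows without overlap and higher numbered 5 at 50 kb, and centring gave 35 lower and 36 higher. With pairs of adjoining numbers as a block, 1007 windows (8.32%) had an unadjusted p under 0.05 and 0 an adjusted one; the cause was not tested. Leaving out 1 pool gave 464 to 934, 128 to 300 and 12 to 38 windows, and groups of 4 overlap less easily.

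DMCs (all, hypermethylated, hypomethylated) numbered 0, 0 and 0 with limma, 1768, 808 and 960 at 25 points, and 803, 370 and 433 with 20 reads in every pool, where 803 is 1.20% of 67071 CG. Without single pools the difference was -0.397 to 1.39 points for the class of 20 to 40% (negative without 3T or 23T) and -1.52 to 0.219 for that of 40 to 60% (positive without 5T, 0.219, or 24C, 0.154). The distance between minus within lines was -0.151 to 0.0469 points. The distance within the methionine minus within the control line was -0.367 to 0.519 without single pools. It was -0.133 with 20 reads in every pool and -0.451 at CG of 20 to 80%. With counting variance subtracted it was -0.866, and -0.685 with counting variance subtracted at 20 reads in every pool. The last 2 were added after the data were seen. For these reversals the cause was not tested.

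Of 220 alternatives for the named windows in F0 and F2, 9 changed sign, 1 lost and 11 gained an unadjusted exact permutation p under 0.05. Without single rams the scaffold window had -1.70 to 2.37 points in F0 (2.37 without 5T, 0.693 without 12C, 1.04 without 24C). In F2, the window of chromosome 1 had -0.5997 to 1.34 (-0.329 without 9T, -0.267 without 23T, -0.5997 without 24C) and 3.12 on CG also listed in F1 (exact permutation p = 0.016), the lower window of chromosome 7 -0.935 to 5.20, that of chromosome 11 -0.313 to 4.67 and that of chromosome 23 -7.02 to 0.0270. The planned results on gene annotation were not run, as no annotation of the build was used. Depth limits single cytosines, where counting took up 52.8% and 44.0% of the variance among methionine pools and among control pools.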

Other observations

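Single pools were at the extremes of the 12103 windows at unequal rates. Pool 5T had the lowest of the 10 levels in 2545 windows and 12C in 2413, whereas 24C had it in 326. The highest level was that of 10C in 2956 windows and of 24C in 2297, against 408 for 5T. Both lines thus held a pool that was often lowest.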
